A study of Bos indicus with 9 samples.

Results

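The regions described here are the open chromatin peaks of 1 stretch of cattle chromosome 29, from 43.2 to 44.9 Mb on the ARS-UCD1.2 build, in hypothalamus, skeletal muscle, and liver. All peaks that overlapped this window of 1.7 Mb were taken, which gave 391 of the 140923 peaks of the series, 184 of 78528 in hypothalamus, 136 of 40104 in muscle, and 71 of 22291 in liver. The tissues came from the same 3 unrelated Brahman (Bos indicus) heifers, past puberty and alike in age and weight, with no treatment named in the labels, so that each tissue is 1 group of 3 libraries and 9 libraries were made in all. Open chromatin was measured by transposase cutting and sequencing (ATAC-seq) in nuclei of whole frozen tissue, which mixes all cell types of an organ. Each tissue is held as 1 consensus list over its 3 heifers, with no value for a single heifer, so differences between tissues were described and not tested. The members were chosen by the start and end of each peak as called, and the window was set with earlier results of its peaks in view, so its counts and levels are given as descriptions as well.

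ATAC-seq uses a transposase that inserts adapters where DNA is not wrapped tightly in chromatin, and a peak marks a place with many insertions, usually a promoter, an enhancer, or another bound element. Promoters of genes that most cells use tend to be open in every tissue, while enhancers differ more between tissues. The window was proposed as the neighborhood of CAPN1 and PYGM. CAPN1 encodes the large subunit of calpain 1, a calcium-dependent protease that cuts muscle proteins after slaughter and is known for its part in meat tenderness. PYGM encodes the muscle form of glycogen phosphorylase, which releases glucose units from stored glycogen, and its loss causes a muscle glycogen storage disease in cattle and humans.

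The position of either gene on ARS-UCD1.2 was not in the sources used here, so no peak was assigned to CAPN1 or PYGM, and the label could not be checked against the build. In the gene order of another cattle assembly, both genes lie between PLCB3, a phospholipase C gene, and FRMD8. Of the 45 protein-coding genes between these anchors, PYGM is number 14 and CAPN1 is number 39, with 24 protein-coding genes between the pair and 6 between CAPN1 and FRMD8. On ARS-UCD1.2, PLCB3 ends at 42572810, which is 627.2 kb before the window, and the window takes the last 37.9% of the sequence between PLCB3 and FRMD8. PYGM, early in this order, may therefore lie before the window, and neither gene is taken here as part of what the window holds. The peaks are placed relative to FRMD8 (chr29:43582047-43603327, + strand), a gene with a position inside it. Its protein stabilizes the iRhom and ADAM17 shedding complex at the cell surface. In mammals the genes of the abundant nuclear noncoding RNAs NEAT1 and MALAT1 are known to lie close to FRMD8, beyond its end. Neither has a position on the build in the sources used here, so no peak was assigned to them.

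Peaks were dense in this window in all 3 tissues. Hypothalamus had 108.24 peaks per Mb against 27.05 over chromosomes 1 to 29 and X, muscle 80.0 against 11.61, and liver 41.76 against 4.59. The window thus stood at 4.0, 6.89, and 9.09 times the density of the chromosomes, and the order of the tissues by this ratio was the reverse of their order by number of peaks. Chromosome 29 as a whole had 35.07, 15.6, and 6.58 peaks per Mb in hypothalamus, muscle, and liver. Hypothalamus peaks covered 234.1 kb of the window, muscle peaks 138.7 kb, and liver peaks 47.4 kb, which is 13.8%, 8.16%, and 2.79% of its sequence. Over the chromosomes the covered share was 2.32%, 0.781%, and 0.284%. The longest stretch with no peak ran over 77.7 kb for hypothalamus (chr29:44771083-44848815), 92.3 kb for muscle (chr29:44153498-44245801), and 171 kb for liver (chr29:44152932-44323884).

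**Figure D1:**
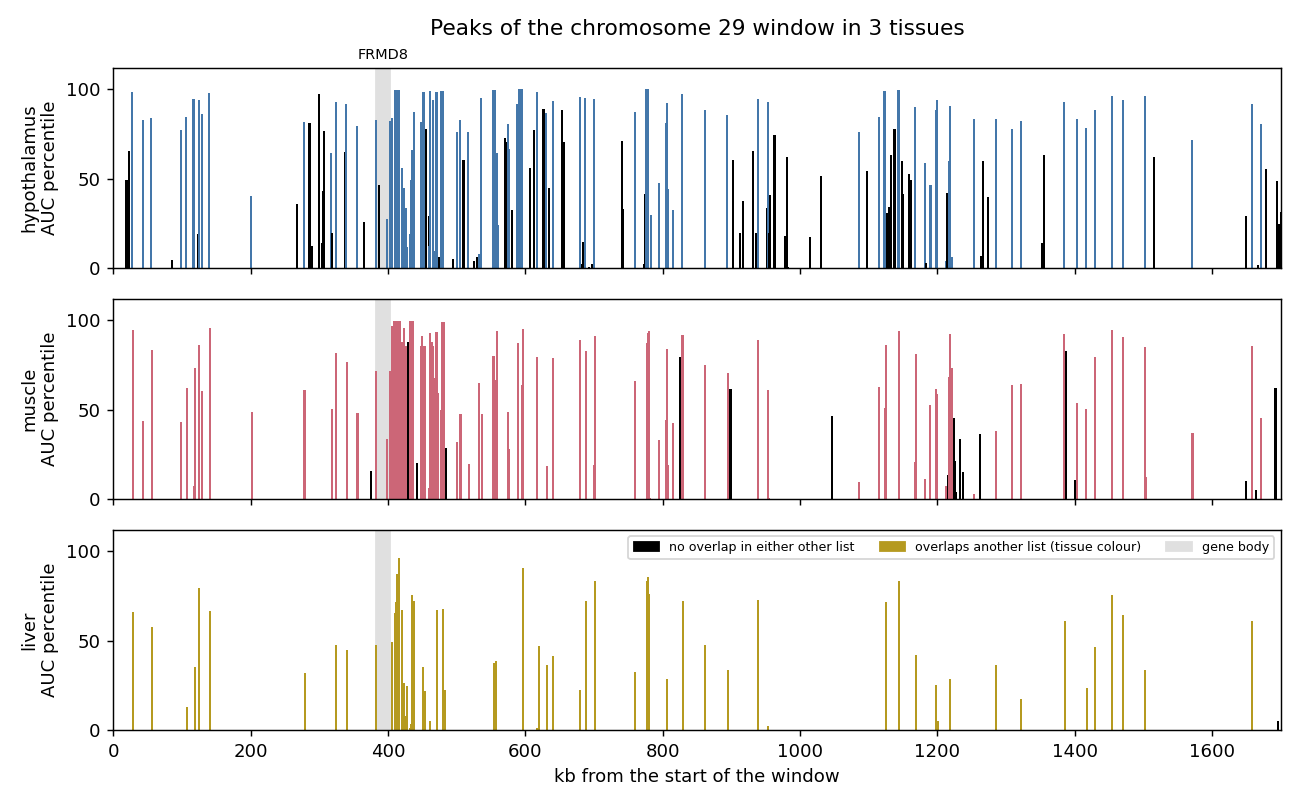
Peaks of hypothalamus, muscle, and liver along the window, in kb from its start, with the percentile of each peak's area under the curve (AUC) within its own list on the vertical axis. Bars start where the peak starts and are drawn at least 3 kb wide so that short peaks can be seen, black bars overlap no peak of either other list, and the gray band is the body of FRMD8. Just after this gene wide bars reach over 99 in hypothalamus and muscle, and the liver panel holds 1 black bar, near its right edge.

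Each peak has 2 strengths, the −log10 p at its summit and the AUC, which sums the signal of the peak caller along the peak and so grows with its length. Both are on the scale of their own list, so the values of the tissues are given side by side and compared only as percentiles within each list. In hypothalamus the summit −log10 p ran from 3.19 to 23.4 with a median of 7.42, against 5.98 over the chromosomes. In muscle it ran from 3.05 to 11.4 with a median of 5.31 against 5.14, and in liver from 3.14 to 8.12 with a median of 4.52 against 4.57. The median summit therefore lay at percentile 63.8 of the hypothalamus list, 49.26 of the muscle list, and 36.1 of the liver list. By summit, hypothalamus alone had a window median well above its chromosome median, at percentile 50.0, while muscle (46.1) and liver (37.4) were close to theirs. By AUC the window medians were at percentiles 62.4, 62.4, and 46.6, against 50.8, 50.0, and 45.4 over the chromosomes. Muscle thus stood above its chromosome median by AUC, as hypothalamus did.

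Window peaks were also longer than peaks elsewhere in hypothalamus and muscle. The median length was 874 bp in hypothalamus (range 157 to 9335) against 567 bp over the chromosomes, 710 bp in muscle (171 to 11917) against 521 bp, and 506 bp in liver (204 to 2934) against 490 bp. Peaks above 2 kb numbered 29 of 184 in hypothalamus (15.8%, background 8.11%), 8 of 136 in muscle (5.88%, background 1.98%), and 2 of 71 in liver (2.82%, background 1.62%), where the background is the same share over chromosomes 1 to 29 and X. All of these muscle peaks except chr29:43757991-43760555 (2565 bp) lay in the 100 kb after the end of FRMD8, so their share describes that stretch. The median muscle length was 721 bp before FRMD8 and 685 bp beyond these 100 kb. Among the top 10% of their list by AUC were 37 hypothalamus peaks (20.1%, Wilson 95% interval 15.0 to 26.5, background 10.5%), 21 muscle peaks (15.4%, 10.3 to 22.5, background 8.58%), and 2 liver peaks (2.82%, 0.776 to 9.70, background 4.08%). The liver count was 7 with percentiles taken among peaks on the chromosomes alone. With AUC divided by length the top 10% held 22 of 184 hypothalamus, 5 of 136 muscle, and 0 of 71 liver peaks. The share over the chromosomes was not computed for this measure. The counts were lower in all 3 tissues, so the standing by AUC rested in part on peak length. The intervals cover counting error only.

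Tissue-specific peaks made up a smaller share of the window than of the chromosomes when an overlap of 1 bp counted as shared. A peak was called tissue-specific when it overlapped no peak of either other list by 1 bp or more. In hypothalamus 85 of 184 peaks were tissue-specific (46.2%, 39.1 to 53.4), against 74.8% over the chromosomes. In muscle there were 22 of 136 (16.2%, 10.9 to 23.3), against 36.0%, and in liver 1 of 71 (1.41%, 0.249 to 7.56), against 7.78%. These shares depended on the rule and on the sizes of the lists. An overlap of 1 bp is also met more easily where peaks are dense, as in this window. When at least 50% of both peaks had to overlap, 125 of 184 hypothalamus peaks had no partner (67.9%, 60.9 to 74.3, background 87.5%). In muscle there were 62 of 136 (45.6%, 37.5 to 54.0, background 58.7%) and in liver 33 of 71 (46.5%, 35.4 to 58.0, background 36.6%). The liver share was then no longer below its background, which lay inside the interval. Equal numbers were then taken, as the 12063 peaks with the highest summits on chromosomes 1 to 29 and X. This is every liver peak there, so only the hypothalamus and muscle lists were thinned. With these, 11 of 57 hypothalamus peaks had no partner at 1 bp (19.3%, background 36.8%), with 7 of 59 in muscle (11.9%, background 31.4%) and 8 of 71 in liver (11.3%, background 29.1%). Of the liver peaks, 69 overlapped hypothalamus (97.2%, 90.3 to 99.2, background 85.1%), 69 overlapped muscle (background 86.4%), and 68 overlapped both (95.8%, 88.3 to 98.6, background 79.3%). Of the muscle peaks, 113 overlapped hypothalamus (83.1%, 75.9 to 88.5, background 61.0%) and 60 overlapped liver (44.1%, 36.0 to 52.5, background 33.4%). Of the hypothalamus peaks, 99 overlapped muscle (53.8%, 46.6 to 60.9, background 24.3%) and 56 overlapped liver (30.4%, 24.2 to 37.4, background 13.8%). All of these 56 overlapped muscle too, so 56 overlapped both (background 12.9%), as did 59 of the muscle peaks (43.4%, 35.3 to 51.8, background 30.4%).

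**Figure D2:**
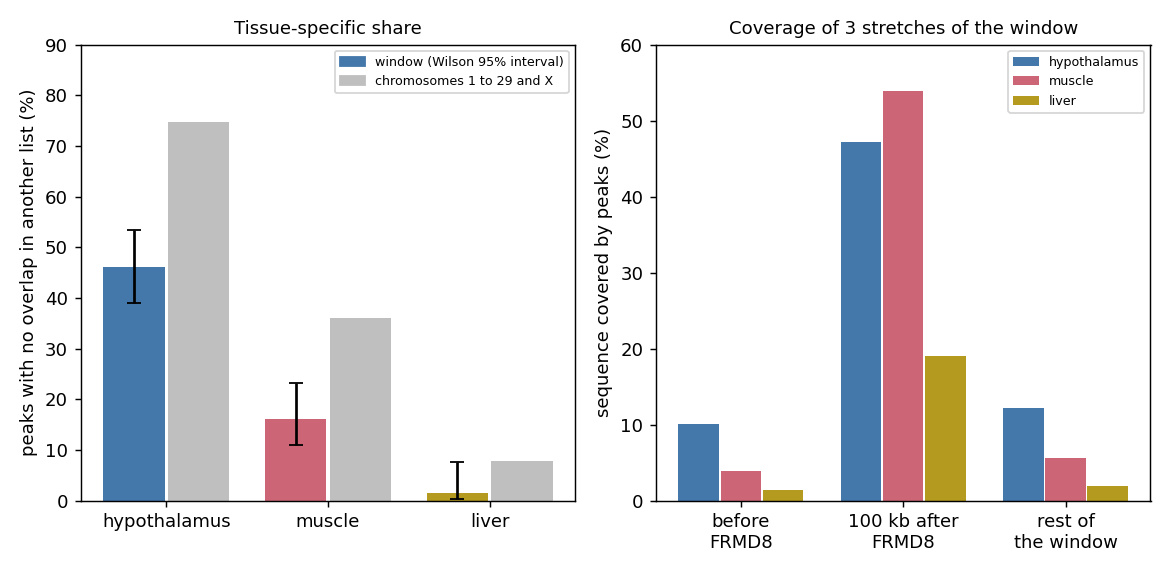
Left, the percentage of peaks with no overlap in either other list, in the window (colored, with Wilson 95% intervals) and over chromosomes 1 to 29 and X (gray). All 3 window bars are below their gray bar. Right, the percentage of sequence covered by peaks before FRMD8, in the 100 kb after its end, and in the rest of the window for each tissue, where the middle stretch is the one in which muscle (53.8%) is above hypothalamus (47.2%).

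Tissue-specific peaks were shorter and weaker than shared ones, where a longer peak meets the 1 bp rule for sharing more easily. In hypothalamus the median summit −log10 p was 5.06 for the 85 specific peaks and 12.2 for the 99 shared peaks, at percentiles 36.5 and 84.0, and the median lengths were 488 and 1331 bp. In muscle the medians were 4.204 for the 22 specific and 5.74 for the 114 shared peaks, at percentiles 23.7 and 56.5, with median lengths of 518 and 735.5 bp. The single liver-specific peak (chr29:44894371-44894673) had a summit −log10 p of 3.54 and an AUC of 220.3, near the lowest AUC of the list, 200.

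Some hypothalamus-specific peaks were strong all the same. The one with the largest AUC, chr29:43497785-43501474, had an AUC of 13073.1 and a summit −log10 p of 20.5, at percentiles 97.3 and 98.0 of the list, with no peak of muscle or liver over its 3690 bp. It lies before FRMD8, as does chr29:43484312-43485497 (AUC 3592.8, summit 12.8). Further along followed chr29:43825049-43828145 (AUC 6504.2, summit 16.2), chr29:43852378-43853818 (AUC 6113.4, summit 15.3), and chr29:44336316-44337866 (AUC 2922.6, summit 11.7). No gene was assigned to these peaks.

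Of the 22 muscle-specific peaks, the largest by AUC, chr29:43628417-43630563, had an AUC of 2486.2 with a summit −log10 p of 5.02 and lies in the 100 kb after FRMD8, as does chr29:43627397-43628305 (AUC 1033.6, summit 5.25). The others of the top 5 lie further along, chr29:44585518-44586525 (AUC 1993.4, summit 6.93), chr29:44024516-44025123 (AUC 1724.7, summit 7.34), and chr29:44891241-44892010 (AUC 963.8, summit 5.11). The summit of 7.34 was the highest of the muscle-specific peaks and stood at percentile 75.8 of the list. Of the 22 peaks, 7 lay within 47 kb (chr29:44414592-44461593), a stretch named after its values were seen, as the densest 50 kb for such peaks. There muscle had 11 peaks against 4 in hypothalamus and 1 in liver, and the 7 specific peaks were weak, with summits from 3.07 to 5.25 and AUC from 217.4 to 594.2. The last of them (chr29:44461242-44461593, 352 bp, AUC 467.8, summit 4.75) is in the study's list of predicted targets of MEF2, a family of transcription factors that acts in muscle differentiation. The study predicted these targets from muscle-specific peaks, and the share of such peaks in that list over the chromosomes was not computed. This 1 peak is therefore not read as a trait of the stretch.

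Merging overlapping peaks of the 3 lists gave 200 regions. Of these, 51 were open in all 3 tissues (25.5%), and 18 such regions remained when only summits of 5 or more were kept. A further 40 were open in hypothalamus and muscle, 1 in muscle and liver, and 0 in hypothalamus and liver. Open in hypothalamus, muscle, or liver alone were 85, 22, and 1. Regions were merged in the window only, so these counts have no share over the chromosomes beside them. Regions open in all 3 tissues had a median length of 2278 bp. It was 1122 bp for those of hypothalamus and muscle, 488 bp for hypothalamus alone, and 518 bp for muscle alone. A merged region runs from the first start to the last end of its peaks, and longer peaks meet a partner more easily at 1 bp. This order is thus in part set by the merging. Regions open in all 3 tissues held 69 of the 71 liver peaks, 70 of the 136 muscle peaks, and 58 of the 184 hypothalamus peaks.

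Where a region was open in all 3 tissues, the summits fell close together while the widths differed. In the 30 regions with 1 peak of each list, the summits of hypothalamus and muscle were a median of 11 bp apart (26 within 100 bp), those of hypothalamus and liver 33 bp (27 within 100 bp), and those of muscle and liver 43.5 bp (23 within 100 bp). The median length in these regions was 1677.5 bp in hypothalamus, 1101 bp in muscle, and 475 bp in liver, and the hypothalamus peak was longer than the muscle peak in 27 of 30 and longer than the liver peak in 29. Over all 51 regions, 15 were split into more than 1 muscle peak, 9 into more than 1 liver peak, and 3 into more than 1 hypothalamus peak.

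The same 51 regions ranked highest in hypothalamus and lowest in liver. The best summit of a region had a median percentile of 91.9 in hypothalamus (range 16.1 to 99.4), 80.5 in muscle (11.7 to 95.2), and 38.6 in liver (0.780 to 84.9). The percentile was above that of muscle in 47 of 51 regions in hypothalamus, and in the other 4 muscle was highest. By AUC the medians were 93.0, 85.5, and 47.2, and hypothalamus was highest in 44 regions and muscle in 7. A percentile is a rank within a list, and the 3 lists differ in size and in the peaks they hold outside the chromosomes, so these orders describe standing within a tissue and not the amount of open chromatin. The choice of regions also enters the order, since they held 69 of the 71 liver peaks but only 58 of the 184 hypothalamus peaks.

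**Figure D3:**
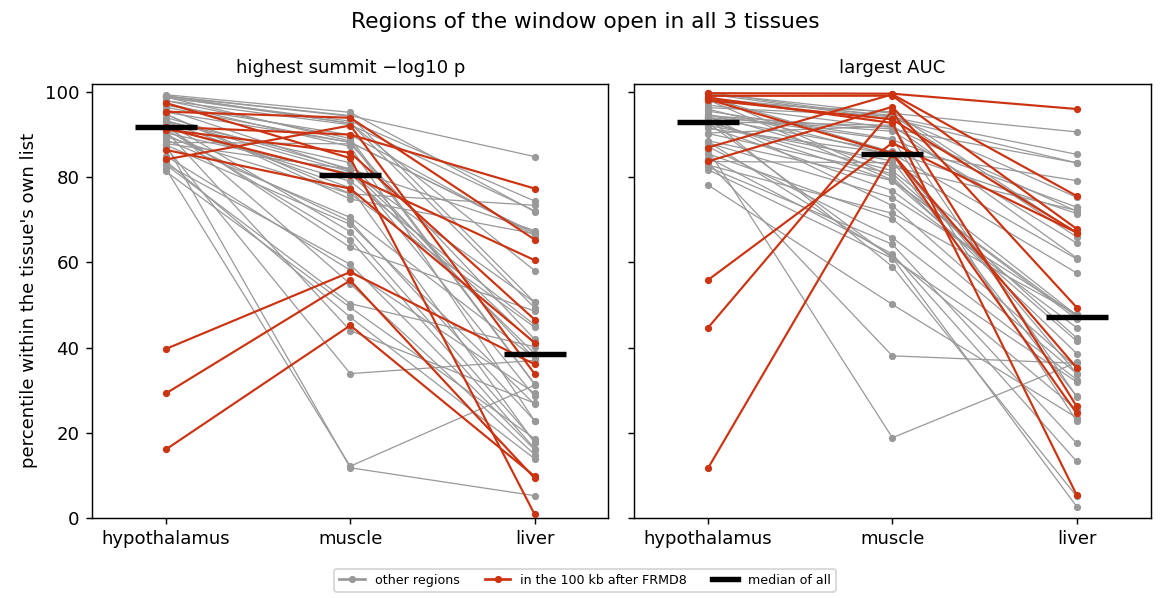
Percentile within each tissue's own list of the highest summit −log10 p (left) and the largest AUC (right) for the 51 regions open in hypothalamus, muscle, and liver, with 1 line per region. Red lines are the 10 regions in the 100 kb after FRMD8 and black bars are medians. Most lines fall from hypothalamus to liver, and some of the red lines rise from hypothalamus to muscle.

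The 382.0 kb before FRMD8, the side on which CAPN1 lies in the gene order, held 30 hypothalamus, 18 muscle, and 11 liver peaks. Peaks covered 10.04%, 3.90%, and 1.46% of the sequence. Placed by midpoint, the FRMD8 start site peak is in the muscle and liver counts but not in the hypothalamus count. Tissue-specific were 15 of the 30 hypothalamus peaks, 1 of the 18 muscle peaks, and 0 of the 11 liver peaks. Over the chromosomes such peaks made up 74.8%, 36.0%, and 7.78%. The muscle-specific one (chr29:43574244-43574829) had a summit −log10 p of 3.96. On this side 9 regions were open in all 3 tissues, without the region at the FRMD8 start site. The strongest by summit in hypothalamus was chr29:43226447-43228724, with a summit −log10 p of 21.9 in hypothalamus, 9.22 in muscle, and 4.35 in liver. In chr29:43338239-43340569 the summits were 19.3, 9.56, and 5.97. In chr29:43322794-43324833 they were 17.1, 8.08, and 6.05, the last being the highest liver summit on this side. In chr29:43522491-43525495 they were 16.7, 7.99, and 5.09. The longest gap between such regions before FRMD8, chr29:43340570-43477010, was named after its values were seen. Its 136.4 kb held 2 hypothalamus peaks with summits of 4.52 and 5.42, 1 muscle peak with a summit of 4.96, and 0 liver peaks. The muscle peak and the weaker hypothalamus peak overlapped, in chr29:43399724-43400555.

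At the FRMD8 start site all 3 tissues had a peak. Its summit −log10 p reached 12.6 in hypothalamus (chr29:43581496-43582598, AUC 4166.5), 5.86 in muscle (chr29:43581516-43582321, AUC 1306.6), and 4.29 in liver (chr29:43581600-43582376, AUC 545.0), at percentiles 85, 58.2, and 29.3. The peak lay over the start site in each tissue, and it ranked highest in hypothalamus and lowest in liver.

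The 100 kb after the end of FRMD8 (chr29:43603328-43703327) stood apart from the rest of the window. It held 28 hypothalamus, 29 muscle, and 22 liver peaks, which is 15.2%, 21.3%, and 31.0% of the window's peaks of each tissue. Hypothalamus peaks covered 47.2 kb of it, muscle peaks 53.8 kb, and liver peaks 19.1 kb, or 47.2%, 53.8%, and 19.1% of the sequence, where the 1196.7 kb beyond had 12.2%, 5.64%, and 1.87%. Tissue-specific were 4 of 28 hypothalamus, 5 of 29 muscle, and 0 of 22 liver peaks. Such peaks made up 46.2%, 16.2%, and 1.41% in the whole window, and 74.8%, 36.0%, and 7.78% over the chromosomes. With so much of the stretch covered, a peak meets a partner at 1 bp easily, so its low shares cannot be told apart from its coverage. The median AUC percentile was 85.5 in muscle against 47.6 in hypothalamus and 51.4 in liver, while by summit the muscle median was at 57.7 and those of hypothalamus and liver at 34.5 and 27.2. Without this stretch the window still had 97.5, 66.87, and 30.62 peaks per Mb and tissue-specific shares of 51.9%, 15.9%, and 2.04%, computed after the data were seen.

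The 2 widest regions of the window lay there. Just beyond FRMD8, the region chr29:43606792-43618708 was a single muscle peak over its whole 11917 bp, with an AUC of 29607.4, the largest of muscle in the window, and a summit −log10 p of 9.58. Hypothalamus had 1 peak of 9335 bp in it (chr29:43608742-43618076, AUC 28658.1, summit 15.8), and liver had 5 peaks, of which chr29:43615131-43618064 had the largest liver AUC of the window at 5643.5 with a summit of 6.93 and chr29:43611957-43613482 the third, at 1918.0 with a summit of 5.51. The second, chr29:43631096-43638665, was again 1 muscle peak, with an AUC of 20835.9 and a summit of 7.90, and was split into 5 peaks in hypothalamus, the best with an AUC of 5614.9 and a summit of 15.6, and into 4 in liver, the best with an AUC of 1161.4 and a summit of 5.61. A further wide region, chr29:43676173-43682926, was 1 hypothalamus peak (AUC 18748.8, summit 12.3), 2 muscle peaks (largest AUC 13907.7, highest summit 10.2), and 2 liver peaks (910.4, 4.44). These 3 regions held the 3 largest muscle AUC values of the window, and the next was 4877.9, at chr29:43603973-43606623.

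From 43618831 to 43630984, between the first and second of these regions, muscle had the higher AUC percentile in all 3 regions that were open in both tissues. In chr29:43622106-43625001 the largest AUC was 4355.6 in muscle, 707.8 in hypothalamus, and 339.2 in liver, with summits of 5.69, 4.68, and 3.66. In chr29:43625112-43626926 it was 2257.0, 274.9, and 327.0, and in chr29:43618831-43620779 it was 2543.4, 1031.2, and 888.4. The 1 region of the window open in muscle and liver but not hypothalamus (chr29:43630673-43630984, summits 5.72 in muscle and 3.37 in liver) fell in the same 12 kb, with 3 muscle-specific peaks. Further on, hypothalamus was strong again, as in chr29:43659491-43663324 (summits 19.9, 8.45, and 3.14) and chr29:43669154-43672400 (18.1, 10.8, and 5.90).

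**Figure D4:**
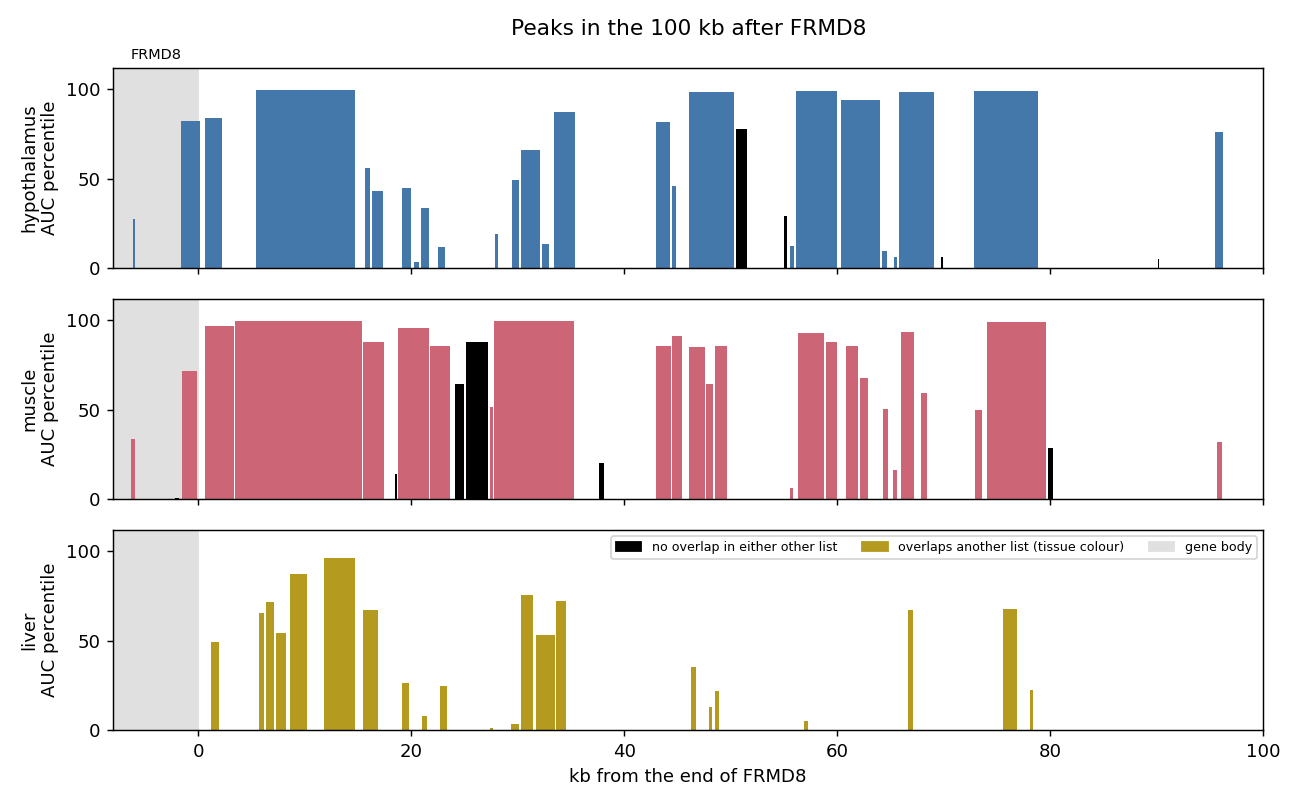
Peaks in the 100 kb after FRMD8, in kb from the end of the gene, with the AUC percentile within each list on the vertical axis and a gray band for the body of FRMD8. Bar width is peak length, and black bars overlap no peak of either other list. Muscle has its widest bar, of 11917 bp, in the first 16 kb and 2 adjacent black bars near 25 kb, where the hypothalamus panel is empty.

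Counted over regions open in both tissues, the AUC percentile was higher in muscle than in hypothalamus in 10 of 17 regions in the 100 kb after FRMD8, with a median difference (muscle minus hypothalamus) of 3.87. It was higher in 1 of 15 regions before FRMD8 (median difference −15) and in 8 of 56 in the rest of the window (−14.04). The value compared was the largest AUC of a single peak, which depends on how a region was split into peaks. Hypothalamus alone was split in chr29:43618831-43620779, chr29:43622106-43625001, and chr29:43631096-43638665, where muscle ranked higher. Muscle alone was split in others, such as chr29:43649374-43653597. By summit the counts were 7 of 17, 1 of 15, and 4 of 56, so hypothalamus kept the higher summit rank in most regions of each stretch.

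Beyond these 100 kb the window held 121 hypothalamus, 86 muscle, and 38 liver peaks. Tissue-specific were 64, 15, and 1 of them, where such peaks made up 74.8%, 36.0%, and 7.78% over the chromosomes. In this stretch 31 regions were open in all 3 tissues. The largest hypothalamus AUC of the window was here, 38157.6 at chr29:43974838-43980641, with a summit −log10 p of 22.4, and the same region held 4 muscle peaks and 4 liver peaks. One of these liver peaks, chr29:43977644-43978604, had the highest liver summit of the window at 8.12 with an AUC of 1726.6, and another, chr29:43976113-43976831, had the fifth liver AUC at 1560.7 with a summit of 7.33. The highest summit of hypothalamus, 23.4, and of muscle, 11.4, fell in one region, chr29:44341400-44346367, where hypothalamus had an AUC of 23747.6, muscle 3601.7, and liver 1557.6. The region chr29:43790085-43797458 had the second AUC of both hypothalamus (29286.2, summit 18.9) and liver (2459.9 at chr29:43794714-43796811, summit 6.01). In chr29:43751654-43757787 the AUC was 21859.7 in hypothalamus, and the peak was split into 3 in muscle and 3 in liver.

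From 44600000 to 44699999, 5 hypothalamus, 5 muscle, and 4 liver peaks were found, and 4 regions were open in all 3 tissues. Of these, chr29:44615777-44617137 had summits of 11.8, 5.37, and 4.67 in hypothalamus, muscle, and liver, and chr29:44627918-44629435 had 16.5, 8.28, and 4.57. The next, chr29:44653171-44654861 had summits of 22.3 in hypothalamus, 11.0 in muscle, and 5.09 in liver, and chr29:44669083-44670333 had 22.7, 10.3, and 5.47. From 44800000 on, 9 hypothalamus, 5 muscle, and 2 liver peaks were found.

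At the window's edges, the first hypothalamus peak inside it (chr29:43217805-43218243) had a summit of 5.95 and the last one before it (chr29:43148716-43149266) 4.97, and at the other end the last inside (chr29:44899257-44899544) had 4.78 and the first beyond (chr29:44917824-44918228) 4.53. Inside and then outside, the muscle summits were 9.22 and 7.81 at the start and 5.11 and 4.85 at the end, and the liver summits 4.35 and 5.23 at the start and 3.54 and 3.52 at the end. In the same order the AUC was 814.3 and 839.7 at the start and 471.6 and 573.9 at the end in hypothalamus, 3884.4 and 2761.2 and then 963.8 and 589.8 in muscle, and 863.9 and 519.2 and then 220.3 and 260 in liver.

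Genes of the same pathways could be placed only in part. Of 5 genes of the calpain system (CAPN1, CAPN2, CAPN3, CAPNS1, and the calpain inhibitor gene CAST), 0 had a position in the sources used here, and of 14 genes of glycogen metabolism there were 2, both outside the window. GBE1, the glycogen branching enzyme, had a start site peak in all 3 tissues with summits of 12.3 in hypothalamus, 6.12 in muscle, and 5.16 in liver. PGM1, a phosphoglucomutase that links glycogen to glycolysis, had summits of 13.1, 10.5, and 6.34, and its muscle AUC of 6482.6 was at percentile 97.8. By percentile of the summit, GBE1 stood at 84.1 in hypothalamus and 61.9 in muscle and PGM1 at 86.0 and 93.1, so the order of these tissues differed between the genes. None of the 6 muscle genes sought in the window (ACTN3, CFL1, EHBP1L1, ESRRA, EFEMP2, and LTBP3) had a position. In the gene order of the other assembly ESRRA is number 5, earlier than PYGM, so it may also lie before the window.

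The tissue labels were checked at the marker genes that had a position, which were 1 of 8 for muscle and 2 of 8 for liver. DES, the muscle intermediate filament gene, had 4 muscle peaks within 3 kb of its start site (best summit 7.60, AUC 2482.8), 1 weak hypothalamus peak (3.71, 221.5), and 0 liver peaks. APOA2, a lipoprotein gene of liver, had 1 hypothalamus, 1 muscle, and 2 liver peaks within 3 kb of its start site. The best summits were at percentile 90.3 in hypothalamus, 81.3 in muscle, and 66.7 in liver. Within 1 kb of the start site there was 1 liver peak, against 0 in hypothalamus and 0 in muscle. AHSG, which encodes the liver plasma protein fetuin-A, had 2 hypothalamus peaks (best summit 9.23) and 0 in muscle and liver. At these 2 genes the labelled liver list held no peak stronger in rank than hypothalamus, and the part of this in the low liver values of the window was not tested. None of the 6 neuron, 4 glia, 4 blood, and 3 endothelium markers had a position, so the mix of cell types in each tissue was not checked.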

How the data were processed

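ATAC-seq libraries of hypothalamus, muscle, and liver from 3 heifers were aligned by the authors to ARS-UCD1.2 with HISAT2, with several alignments allowed per read, and peaks were called with Genrich 0.6.1 at p below 0.01. Reads with several alignments counted as fractions, which can add signal in repeats. The deposited values are the AUC, a signal summed along each peak, and the −log10 of the p at the summit, which the authors combined over the 3 heifers by Fisher's method and did not adjust, with the offset of the summit. Neither was scaled between lists, no list holds a value for 1 heifer, and the read depth behind a peak is unknown.

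Lists were read as deposited, with starts printed from 1. Percentiles were taken within each whole list. Overlaps of at least 1 bp were computed in Python 3.11.15 with numpy 2.4.6 and pandas 2.3.3 and checked on simulated data against bedtools 2.31.1, which also gave the reciprocal overlaps. Shares have Wilson 95% intervals (scipy 1.17.1), and plots used matplotlib 3.10.9. The code was tested on simulated data and returned every planted count. Peaks were placed relative to FRMD8 and the 100 kb after it by midpoint, with gene positions from the RefSeq annotation of the build that accompanies the study's annotated peaks, and gene order from the RefSeq table of another cattle assembly (NIAB-ARS_B.indTharparkar_mat_pri_1.0), of which no coordinate was used.

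No test was made. Named peaks are the 5 with the largest AUC per list and the 5 largest tissue-specific ones per tissue, start site peaks of placed genes from fixed lists, and the MEF2 target, and the other peaks and regions printed were chosen after their values were seen. The window, the gene lists, and the stretches were chosen with earlier results of these data known. Alternatives were a stricter summit, equal numbers of peaks, chromosomes only, other overlap rules, AUC per bp, and a shorter start site distance. No sequence is printed, since no genome of the build was used here.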

Additional observations from a re-analysis of the deposited data

How the results depend on the processing

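No paired analysis was possible because each list combines the 3 heifers of a tissue, and for the same reason no heifer could be left out. Of 57 recomputed values, 27 stayed within the limits set for an unchanged value and 30 moved. The cause was not tested beyond the construction of each alternative.

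When only peaks with summits of 5 or more in −log10 p were kept, hypothalamus had 122 peaks, muscle 82, and liver 24 (21.1 kb covered), 14 muscle and 0 liver peaks were tissue-specific, 18 regions were open in all 3 tissues, 0 liver peaks remained at the FRMD8 start site, and 14 hypothalamus and 6 liver peaks lay in the 100 kb after FRMD8. With equal numbers of peaks per list on the chromosomes, all liver peaks there were kept and the other lists were thinned. Hypothalamus then had 57 peaks (146.9 kb, 11 specific, 9 in the 100 kb after FRMD8), muscle had 59 (85.3 kb, 7 specific, 15 in these 100 kb), and liver had 71 (8 specific), so hypothalamus no longer had the most peaks nor liver the fewest specific ones. The count in these 100 kb under both settings was computed after the data were seen. Under 50% reciprocal overlap 125 hypothalamus, 62 muscle and 33 liver peaks were tissue-specific. With partners allowed within 1 kb there were 72 in hypothalamus, 12 in muscle, and 0 in liver. With chromosomes only, the liver median summit percentile was 48.5 and 7 liver peaks were in the top 10% by AUC. By AUC per bp the median percentile was 41.68 in muscle and 26.35 in liver, and the top 10% held 22 hypothalamus, 5 muscle, and 0 liver peaks.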
